A study of Rattus norvegicus with 15 samples.

Results

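Doxorubicin (DOX), an anthracycline given to cancer patients, is toxic to heart muscle, and the samples described here are cultured rat heart muscle cells exposed to it for 6 h. They are 6 of the 15 samples of a study of microRNAs (miRNAs) in cardiomyocyte injury: 3 lanes of cells given DOX and 3 lanes of cells given saline vehicle, chosen by their labels. In both groups the cells were cardiomyocytes isolated from healthy adult Sprague Dawley rats and kept in M199 medium. After treatment both groups were set on laminin for 1 h, and only cells that attached went into TRIzol, so the RNA is that of survivors and not of detached, apoptotic cells. No DOX concentration is given in the sources used here, and the labels do not say whether the 3 lanes of a group are separate cell preparations, so the p-values reflect lane-to-lane spread, which may be technical. The other 9 samples were cells from hearts after repeated DOX injections, after infarction and from age-matched controls. They enter the fits as further groups that share the estimate of the spread.

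A miRNA is a short RNA that guides the silencing machinery to mRNAs through its seed, bases 2 to 8 from the 5′ end, and miRNAs with one seed form a family with overlapping targets. Many are cut in series from one primary transcript, so the miRNAs of a locus begin as one RNA and are set apart only by later processing and decay. Heart muscle is known for a few very abundant muscle miRNAs (myomiRs), among them miR-1, miR-133, miR-208 and miR-499, and for miR-29, which represses collagen mRNAs.

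The nCounter assay joins each miRNA to a tag and counts single tagged molecules with coloured barcodes. Of 420 rat miRNA probes, 116 lay above the lane background, the mean plus 2 SD of the 8 negative controls, in at least 1 of the 6 lanes, and 67 did so in all 6. Models were fitted to the 109 that passed background in at least 3 of all 15 lanes. Of those, 1 (miR-3589) was above background in none of the 6 lanes, and 8 probes above background in 1 or 2 of the 6 were not tested. Levels below are normalized CPM, the share of a lane's miRNA counts on a common scale after TMM scaling. Total miRNA counts were 100153, 71522 and 104987 in DOX lanes 1, 2 and 3, against 137746, 133160 and 122854 in the vehicle lanes.

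The layout of the lanes bears on every value below. One cartridge carried the DOX lanes and another carried all the rest, vehicle included, so DOX and cartridge cannot be told apart. DOX lane 3 also stood away from the other DOX lanes: over the tested miRNAs its chi-square per degree of freedom was 133 and 155 against DOX lanes 2 and 1, and only 53.8 to 65.3 against the vehicle lanes. The corresponding value was 2.90 between DOX lanes 1 and 2 and 2.56 to 3.87 between vehicle lanes. By this measure DOX lane 3 lay nearer to vehicle than to the lanes that share its label, and its value is therefore given apart. Of the 33 calls reported below, the fold moved by over 1.5 times without this lane for 5 (miR-29b, miR-29c, miR-30a, miR-30e and miR-210), and it was smaller without it for 5 others.

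The following mature sequences, from RefSeq (rat build GRCr8, all 5′ to 3′), are those on which the results turn; the seed is in capitals. The first set holds the families that fell furthest and the miRNAs with their seed, as far as a sequence was matched.
miR-29a: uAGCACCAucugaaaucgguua
miR-29b: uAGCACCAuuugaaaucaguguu
miR-29c: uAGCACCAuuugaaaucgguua
miR-30a: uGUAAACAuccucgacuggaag
miR-30e: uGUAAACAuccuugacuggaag
miR-30c: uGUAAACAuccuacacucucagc
miR-133a: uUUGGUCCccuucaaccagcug
miR-133b: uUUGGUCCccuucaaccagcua
miR-1949: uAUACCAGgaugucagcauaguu
The second set holds called miRNAs that rose, with let-7i, the let-7 member that passed as lower without DOX lane 3.
let-7c: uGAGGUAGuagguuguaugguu
let-7f: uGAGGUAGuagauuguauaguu
let-7i: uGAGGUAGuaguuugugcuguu
miR-99b: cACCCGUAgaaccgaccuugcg
miR-125a-5p: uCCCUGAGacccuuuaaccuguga
The third set holds neighbours from shared loci with unlike changes. For miR-23b and miR-27b the groups overlapped in count ratio unless DOX lane 3 was left out.
miR-143: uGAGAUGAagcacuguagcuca
miR-145: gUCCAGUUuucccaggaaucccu
miR-23b: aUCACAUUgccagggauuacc
miR-27b: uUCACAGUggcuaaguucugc
miR-1: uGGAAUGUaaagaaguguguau
A mature sequence was matched to 90 of the 109 tested probes, 25 by name and 65 by the arm that an unstarred probe name stands for. Family members this alike may share probe signal, which was not tested.

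Across the panel the miR-29 family, miR-30a, miR-30e, miR-133b and miR-1949 fell furthest, and miR-150, miR-99b, let-7c and let-7f had the largest rises. By edgeR's quasi-likelihood test, 33 of the 109 miRNAs passed an adjusted p of 0.05, which is 30.3% of those tested; 18 were higher (16.5%) and 15 lower (13.8%). An unadjusted p under 0.05 was reached by 51. Of the 33 calls, 30 had groups that did not overlap, as did 46.8% of all tested miRNAs. Without DOX lane 3 the count was 69 (63.3%), with 37 higher (33.9%) and 32 lower (29.4%), and all 33 calls were among them in the same direction. The other 36 were passed only once that lane was left out, 19 higher and 17 lower, and 40 miRNAs passed in neither fit.

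**Figure D1:**
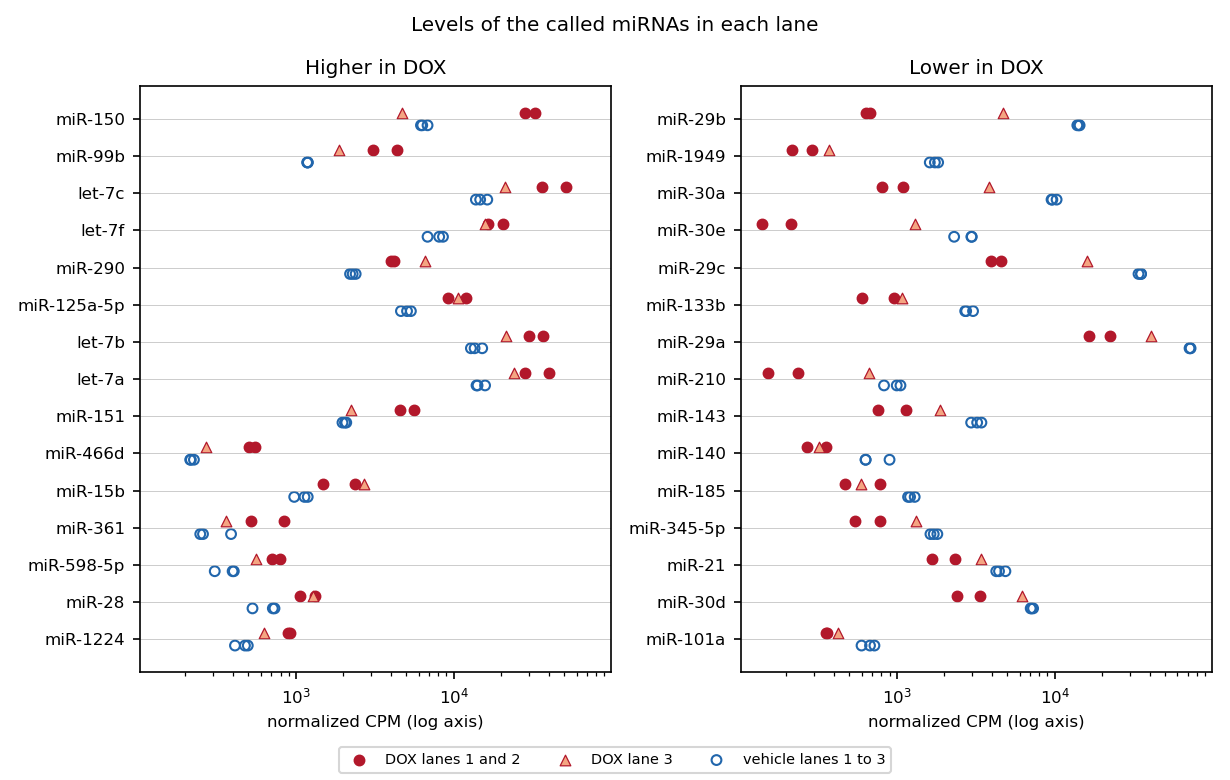
Normalized CPM on a log axis of the 15 called miRNAs with the largest change in each direction, 1 miRNA per row, with the DOX lanes above the vehicle lanes; filled circles are DOX lanes 1 and 2, triangles DOX lane 3 and open circles the 3 vehicle lanes. DOX lane 3 lies between the other DOX lanes and vehicle for miR-29b (4682 CPM) and among or below the vehicle lanes for miR-150 (4682 CPM), while it lies beside the other DOX lanes for miR-125a-5p.

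How many calls point up depends on the scaling, because the whole distribution shifts with it. The median log2 change of the 109 was 0.27 under TMM, and it ranged from -0.30 with spike-in probes to 0.55 with upper-quartile scaling. Higher and lower calls numbered 9 and 22 with RLE factors, 48 and 12 with the upper quartile, 12 and 15 with total counts, 0 and 12 with housekeeping mRNAs and 0 and 22 with spike-in probes. With positive controls 1 miRNA passed, miR-1949 (log2 -2.86). All 33 calls kept their sign under these 7 scalings, and the lower calls of the miR-29 and miR-30 families and of miR-133b passed under housekeeping and spike-in scaling too, except that miR-30d did not pass with housekeeping mRNAs. A rise below is a rise relative to the other miRNAs of the lane.

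**Figure D2:**
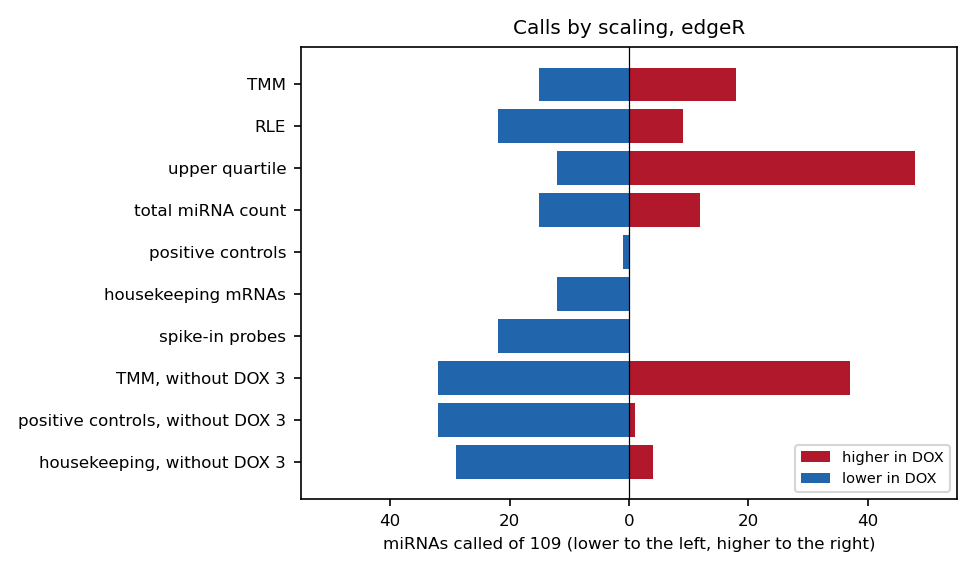
Number of the 109 tested miRNAs that edgeR called under 7 scalings and, for 3 of them, without DOX lane 3; bars to the left count lower calls and bars to the right higher calls. The 18 higher calls under TMM are 0 under positive-control, housekeeping and spike-in scaling, whereas lower calls remain under every one, 1 of them under positive controls.

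The miR-29 family, whose 3 measured members share the seed AGCACCA, fell in all 3 members, at a median log2 change of -2.09 beside 0.27 for all tested miRNAs. All 3 passed as lower, beside 13.8% of all tested miRNAs. The level of miR-29b was 640, 675 and 4682 CPM in DOX lanes 1, 2 and 3, against 14245, 14400 and 13928 CPM in the vehicle lanes. Every DOX lane was below every vehicle lane, and the vehicle lanes were close to each other. The fall was 7.06-fold (log2 -2.82, SE 0.76, adjusted p = 0.0153), and 21.5-fold without DOX lane 3. Raw counts of miR-29b in DOX lanes 1 and 2 were 57 and 53, just above the lane backgrounds of 43.4 and 41.7. They were 1755 to 2041 in vehicle, so the size of the fall without lane 3 rests on DOX counts near background. The level of miR-29c was 4592, 3974 and 15954 CPM under DOX and 35273, 34003 and 35261 CPM in vehicle, a 4.26-fold fall (SE 0.50 on the log2 scale), and 8.13-fold without DOX lane 3. The level of miR-29a was 22431, 16623 and 40860 CPM under DOX and 72654, 72071 and 71586 CPM in vehicle, a 2.71-fold fall, and 3.69-fold without that lane. DOX lane 3 was intermediate for all 3, having moved 36%, 37% and 43% of the log2 distance that DOX lanes 1 and 2 had moved for miR-29b, miR-29c and miR-29a.

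The members did not fall equally. Within a lane the count of miR-29a was 35.1, 24.6 and 8.73 times that of miR-29b under DOX, against 5.10, 5.01 and 5.14 times in vehicle. The pair lies side by side at chr4:60617968-60617989 (miR-29a) and chr4:60618342-60618364 (miR-29b, minus strand both), and miR-29b has a second copy beside miR-29c on chromosome 13. The count of miR-29c was 7.18, 5.89 and 3.41 times that of miR-29b under DOX and 2.48, 2.36 and 2.53 times in vehicle. A ratio within a lane does not depend on how lanes are scaled, and for both pairs all DOX lanes lay above all vehicle lanes. In DOX lanes 1 and 2 both ratios rest on miR-29b counts near background.

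The miR-30 family, abundant in heart muscle, split by member. Of its 5 measured members, 3 passed as lower, beside 13.8% of all tested miRNAs. The median log2 change of the 5 was -0.84, beside 0.27 for all tested miRNAs. The level of miR-30a was 1100, 802 and 3828 CPM under DOX and 10294, 9678 and 9563 CPM in vehicle, a 5.13-fold fall (log2 -2.36, SE 0.53, adjusted p = 0.00504) that was 10.3-fold without DOX lane 3. The level of miR-30e was 213, 140 and 1306 CPM under DOX and 2987, 2970 and 2309 CPM in vehicle. Only DOX lane 3 was above background for miR-30e, so the 4.87-fold fall, or 15.3-fold without that lane, rests on DOX values at background in lanes 1 and 2. The level of miR-30d was 3379, 2407 and 6199 CPM under DOX against 7307, 7130 and 7055 CPM in vehicle (1.79-fold lower, and 2.47-fold without lane 3). The remaining members were flat: miR-30c had 6029, 4840 and 8932 CPM under DOX and 6149, 6802 and 6722 CPM in vehicle, with overlapping groups and a log2 change of 0.01 (SE 0.26), and miR-30b-5p gave 0.07 (SE 0.29). Among the members matched to a sequence, miR-30a, miR-30c and miR-30e share the seed, and their changes span log2 -2.36 to 0.01. The probes of miR-30b-5p and miR-30d were not matched to a sequence, so their seeds were not compared.

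The cells carried muscle miRNAs at high level, as heart muscle cells do. Of the 5 tested, 1 passed, as lower, beside 13.8% of all tested miRNAs. The most abundant miRNA, miR-1, had 246545, 197287 and 259820 CPM under DOX and 187650, 195282 and 203336 CPM in vehicle, with overlapping groups (log2 0.26, SE 0.23, adjusted p = 0.352). It took 21.9%, 21.7% and 24.6% of the counts of the DOX lanes and 19.5%, 20.1% and 20.9% of those of the vehicle lanes. The level of miR-133b, of a family known to restrain cardiac hypertrophy, was 954, 599 and 1075 CPM under DOX and 3043, 2751 and 2714 CPM in vehicle. All DOX lanes, lane 3 included, were below vehicle, and the fall was 3.22-fold (log2 -1.69, SE 0.31, adjusted p = 0.000618), or 3.63-fold without lane 3. Its near-twin miR-133a had 16615, 13095 and 39393 CPM under DOX and 37967, 37827 and 36571 CPM in vehicle. DOX lane 3 was above all vehicle lanes there, and miR-133a did not pass with it (log2 -0.70, adjusted p = 0.0911) and did without it (log2 -1.33, adjusted p = 5.5e-05).

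DOX lane 3 also decided the call of miR-499, a miRNA encoded in a myosin gene. The level of miR-499 was 10048, 8751 and 43965 CPM under DOX and 50795, 51898 and 50872 CPM in vehicle. DOX lanes 1 and 2 were at a fraction of vehicle and lane 3 just below it. The log2 change was -1.29 (SE 0.59, adjusted p = 0.103), and -2.44 (SE 0.41) without that lane, which is a 5.44-fold fall that passed. The cardiac myosin miRNA miR-208 had 2099, 2267 and 1256 CPM under DOX and 1612, 1606 and 1627 CPM in vehicle, with overlapping groups (log2 0.21, SE 0.29). The authors subtracted a share of a positive control from this probe. In their corrected sheet miR-208 is set to 1 count in all 6 lanes, so no miR-208 signal is left there. Of the 5 tested myomiRs 3 passed as lower without DOX lane 3, beside 29.4% of all tested miRNAs.

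The let-7 family has 8 members with the seed GAGGUAG that are abundant in differentiated cells. Of these, 5 passed as higher (let-7a, let-7b, let-7c, let-7e and let-7f), beside 16.5% of all tested miRNAs. The median log2 change of the 8 was 0.91, beside 0.27 for all tested miRNAs. The largest rise was that of let-7c, at 51103, 36036 and 21068 CPM under DOX and 13826, 16326 and 14714 CPM in vehicle. All DOX lanes were above vehicle, DOX lane 3 the least, and the rise was 2.41-fold (log2 1.27, SE 0.30, adjusted p = 0.00327), or 2.91-fold without lane 3. The level of let-7f was 20488, 16534 and 15894 CPM under DOX and 6833, 8554 and 8095 CPM in vehicle, a 2.25-fold rise in which lane 3 lay close to lane 2. The levels of let-7a and let-7b rose 2.10-fold and 2.12-fold, and let-7d and miR-98 gave log2 changes of 0.47 and 0.50 that did not pass although their groups did not overlap. The family median stayed above 0 under all 7 scalings, at 0.33 with spike-in probes, where 5 of the 8 were above 0.

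The exception was let-7i, with 2167, 1834 and 6360 CPM under DOX and 5472, 5189 and 5317 CPM in vehicle. DOX lanes 1 and 2 were far below vehicle and lane 3 above it. Its log2 change was -0.62 (SE 0.39, adjusted p = 0.186), and -1.41 (SE 0.31, adjusted p = 0.00012) without DOX lane 3. It is encoded apart from the other members, at chr7:60527935-60527956 on the minus strand.

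The neighbours of let-7 genes rose with them at one locus. On the plus strand of chromosome 1, miR-99b (chr1:67350070-67350091), let-7e (chr1:67350243-67350264) and miR-125a-5p (chr1:67350689-67350712) all passed. The miR-99 family is known to repress the kinase mTOR in human cells. The level of miR-99b was 4356, 3083 and 1879 CPM under DOX and 1179, 1190 and 1190 CPM in vehicle, a 2.61-fold rise (log2 1.39, SE 0.29, adjusted p = 0.00238), or 3.13-fold without lane 3. The level of miR-125a-5p was 12035, 9197 and 10720 CPM under DOX and 4634, 5065 and 5357 CPM in vehicle. DOX lane 3 lay between the other DOX lanes there, and the rise was 2.12-fold with or without it. The level of let-7e was 6242, 5261 and 4461 CPM under DOX and 3329, 3240 and 2921 CPM in vehicle (1.68-fold higher, adjusted p = 0.0416). Its call was less firm: it passed in 6 of the 26 settings tried, against 21 for miR-99b and 20 for miR-125a-5p. Their relatives from other loci did not pass. No sequence was matched to miR-99a, which gave log2 0.19 (SE 0.27). With the miR-99b seed, miR-100 gave log2 0.43 (SE 0.27), and miR-125b-5p gave 0.61 (SE 0.28, adjusted p = 0.0944). Of these miR-125b-5p passed without DOX lane 3, at log2 0.86, where its level was 67280, 54226 and 31155 CPM under DOX and 33891, 32208 and 34047 CPM in vehicle.

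**Figure D3:**
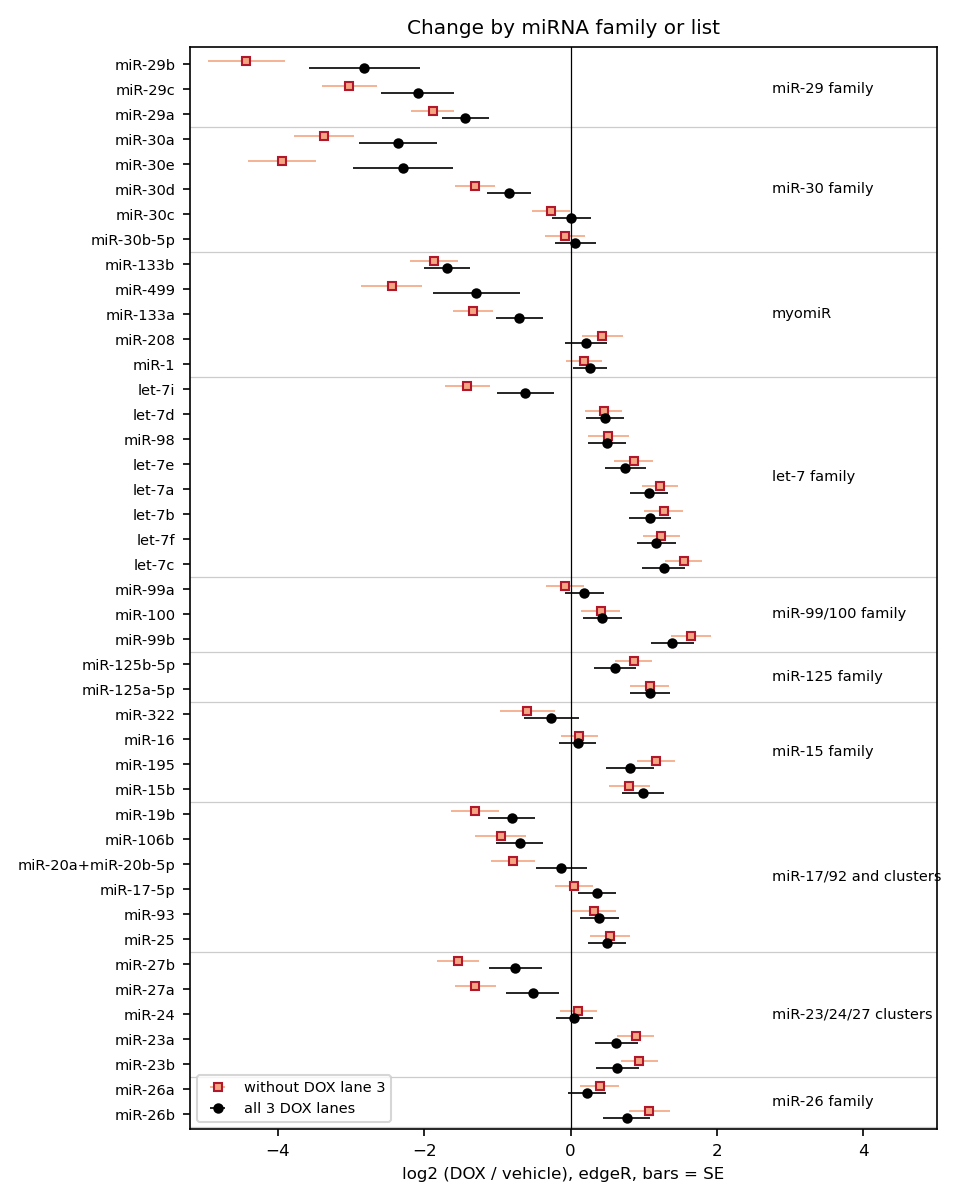
Log2 change of DOX over vehicle with its SE (edgeR) for the tested members of 10 families or lists; circles use all 3 DOX lanes and squares leave out DOX lane 3. All 3 miR-29 members lie left of 0 in both fits, 7 of 8 let-7 members lie right of it, and leaving out lane 3 moves miR-29b to -4.43, miR-30e to -3.94 and miR-499 to -2.44.

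The largest called change outside these families was a fall of miR-1949, a rodent miRNA with no role named here. It had 292, 217 and 372 CPM under DOX and 1829, 1744 and 1619 CPM in vehicle. No DOX lane was above background, where raw counts were 26, 17 and 37, against 262, 239 and 204 in vehicle, so the 5.83-fold fall (log2 -2.54, SE 0.30, adjusted p = 5.98e-07) rests on DOX values at background. The fall without DOX lane 3 was 6.74-fold. miR-1949 was called in 25 of the 26 settings tried.

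Beyond miR-1949 and miR-30e, 13 miRNAs were above background in all 3 vehicle lanes and in at most 1 DOX lane, and none was so in the opposite direction. They were miR-19b, miR-32, miR-34a, miR-93, miR-101a, miR-101b, miR-106b, miR-140, miR-190, miR-199a-5p, miR-210, miR-301a and miR-543. Background was 43.4, 41.7 and 44.8 counts in DOX lanes and 47.2, 42.5 and 33.3 counts in vehicle lanes. Since the DOX lanes held fewer counts in all, a miRNA of equal share was less often above it, and the difference in detection is not a fall by itself: miR-93 and miR-32 gave log2 changes of 0.39 and 0.22. Of the 13, miR-140, miR-101a and miR-210 passed as lower, beside 13.8% of all tested miRNAs. Since the 13 were chosen by detection in vehicle and in at most 1 DOX lane, that choice favours lower calls among them. The level of miR-140 was 269, 357 and 321 CPM under DOX and 900, 635 and 635 CPM in vehicle, 2.29-fold lower, with all DOX lanes at background.

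Of 9 tested miRNAs on the hypoxia, p53 and DOX toxicity lists, 0 passed as higher and 3 as lower with all lanes, beside 16.5% and 13.8% of all tested miRNAs. Without DOX lane 3, 1 passed as higher and 4 as lower, beside 33.9% and 29.4% of all tested miRNAs. The level of miR-210, known to be induced by hypoxia through HIF, was 236, 153 and 663 CPM under DOX and 831, 1000 and 1056 CPM in vehicle. All DOX lanes were below vehicle and 1 (lane 3) was above background; the fall was 2.68-fold (log2 -1.42, SE 0.33, adjusted p = 0.00327), or 4.87-fold without lane 3. The p53 target miR-34a had 191, 229 and 412 CPM under DOX, all below background, and 475, 394 and 540 CPM in vehicle, with overlapping groups (log2 -0.74, SE 0.33, adjusted p = 0.0791). Without DOX lane 3 it passed as lower, at log2 -1.16. The other tested miRNAs of the p53 list were miR-194 (log2 0.01, above background in 1 of the 6 lanes) and miR-107 (log2 0.59, SE 0.25), and neither passed in either fit. Of 6 tested miRNAs on a list linked to DOX toxicity in the heart, miR-140 and miR-21 fell; without DOX lane 3, miR-34a also passed as lower and miR-146a as higher (log2 0.85). The level of miR-21, a miRNA raised in many stressed tissues, was 2335, 1681 and 3426 CPM under DOX and 4878, 4445 and 4270 CPM in vehicle, 1.82-fold lower with groups that did not overlap, and 2.25-fold without lane 3.

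The miR-15 family, known to hold back cell division, had 4 tested members, of which miR-15b rose 1.98-fold (log2 0.99, SE 0.28), or 1.75-fold without lane 3. Its level was 2358, 1478 and 2703 CPM under DOX and 977, 1190 and 1135 CPM in vehicle, with DOX lane 3 the highest. The change of miR-16 was log2 0.10 (SE 0.25) and that of miR-322 -0.26 (SE 0.37), while miR-195, at 1650, 1401 and 543 CPM under DOX and 782, 562 and 690 CPM in vehicle, passed only without DOX lane 3 (log2 1.17). Of the 6 tested probes of the miR-17 family and its clusters, 0 passed with all lanes (median log2 change 0.12). Without lane 3, miR-19b, miR-106b and the probe shared by miR-20a and miR-20b-5p (miR-20a+miR-20b-5p, log2 -0.79) passed as lower, beside 29.4% of all tested miRNAs.

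The 5 tested miRNAs of the miR-23/24/27 clusters gave no call with all lanes and 4 without DOX lane 3, in opposite directions. Of all tested miRNAs 63.3% passed without that lane. The level of miR-27b, known to act on lipid and muscle genes, was 12619, 9706 and 35425 CPM under DOX and 31379, 31959 and 34102 CPM in vehicle. DOX lane 3 was above all vehicle lanes while lanes 1 and 2 were well below, and the log2 change was -1.54 (SE 0.29) without lane 3 and -0.75 (SE 0.37) with it. The level of miR-23b, from the same locus, was 11227, 8853 and 4350 CPM under DOX and 5409, 5116 and 5174 CPM in vehicle. Here DOX lane 3 was below all vehicle lanes, and the log2 change was 0.94 (SE 0.25) without it and 0.64 (SE 0.29) with it. Their counterparts miR-27a (-1.30) and miR-23a (0.89) did likewise without lane 3, and miR-24 gave 0.11 without it and 0.05 with it. Of the miR-26 family, miR-26b passed only without lane 3 (log2 1.08), and of 4 metabolic miRNAs miR-22 (-0.73) and miR-378 (-0.68) did so as lower; the change of miR-378 with all lanes was -0.04 and turned positive with upper-quartile scaling.

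MiRNAs known from other cell types were measured too. The endothelial miRNA miR-126 was among the most abundant, at 92753, 70925 and 79430 CPM under DOX and 66721, 69801 and 70808 CPM in vehicle; it did not pass (log2 0.23, SE 0.30). In such bulk samples fewer cells of a type and less RNA per cell cannot be told apart. The leukocyte miRNA miR-150 had 32534, 28100 and 4682 CPM under DOX and 6323, 6831 and 6206 CPM in vehicle. DOX lanes 1 and 2 were far above vehicle and lane 3 below all vehicle lanes, so the 3.37-fold rise (log2 1.75, SE 0.61, adjusted p = 0.0468) has overlapping groups, and it was 4.70-fold without lane 3. The second tested leukocyte miRNA, miR-146a, had 6904, 5032 and 2934 CPM under DOX and 3176, 3445 and 3302 CPM in vehicle and passed only without lane 3 (log2 0.85). The defining leukocyte miRNAs miR-223, miR-142-3p and miR-142-5p, and the erythroid miR-451 and miR-144, were above background in none of the 6 lanes. Of 5 tested fibroblast-associated miRNAs, miR-199a-3p rose 1.61-fold, miR-21 fell, and miR-214 on the same list was above background in no lane. Without DOX lane 3, miR-199a-3p and miR-10a-5p passed as higher, and miR-21, miR-152 and miR-199a-5p as lower. Of all tested miRNAs 16.5% passed as higher and 13.8% as lower with all lanes, and 33.9% and 29.4% without lane 3. The summed level of the tested fibroblast list was 6038 to 8389 CPM in DOX lanes and 8619 to 9066 CPM in vehicle lanes, and that of the leukocyte list 7615 to 39439 CPM in DOX lanes and 9499 to 10276 CPM in vehicle lanes. The part of such cells in the results was not tested.

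Further calls were spread over miRNAs without a list. Lower ones were miR-185 (1.99-fold), with 786, 471 and 593 CPM under DOX and 1179, 1299 and 1214 CPM in vehicle, and miR-345-5p (1.93-fold, or 2.57-fold without lane 3). Higher ones were miR-151 (2.04-fold, or 2.50-fold without lane 3), miR-28 (1.84-fold), miR-1224 (1.76-fold), miR-365 (1.73-fold), miR-361 (1.92-fold), miR-466d (1.99-fold) and miR-598-5p (1.85-fold). For miR-365, DOX lane 3 (844 CPM) was below every vehicle lane (873 to 991 CPM), and for miR-361 it lay within their range. In vehicle, miR-361 was above background in 1 lane, miR-466d in 0 and miR-598-5p in 2. The call of miR-290 (2.14-fold higher) rests on uncorrected counts: after the authors' probe correction miR-290 had 1, 1 and 342 counts in the DOX lanes and 1 count in every vehicle lane, so DOX lane 3 alone carried signal. Negative controls themselves averaged 166, 217 and 139 CPM of miRNA counts in DOX lanes and 121, 122 and 112 in vehicle lanes, and miR-466d stood at 505, 548 and 271 CPM under DOX and 216, 226 and 214 CPM in vehicle. The part of this background in the rises of such faint miRNAs was not tested. Of the 33 calls, 24 were above background in all 6 lanes, 15 higher and 9 lower.

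Neighbouring miRNAs of a locus were set against each other within a lane, which removes the scaling. For 18 pairs of tested miRNAs with different seeds whose mature sequences lie within 10000 bases of a neighbour on one strand, the ratio of their counts was taken within each lane. In 8 of the 18 the DOX and vehicle lanes did not overlap, a share near the 46.8% of single miRNAs with groups apart. Without DOX lane 3 they did not overlap in 15, beside 86.2% of single miRNAs. Of the 13 pairs with both members above background in all 6 lanes, 5 were apart; in the other 3 of the 8, miR-19b, miR-106b or miR-199a-5p was above background in at most 1 DOX lane. With 3 lanes against 3 the smallest two-sided exact permutation p is 0.1, which these 8 reached, and it was 0.175 after Benjamini-Hochberg adjustment over all 28 pairs of a locus. This comparison was added after the values were seen.

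Among pairs with different seeds the widest split was that of miR-145 (chr18:57370033-57370055) and miR-143 (chr18:57371373-57371394), the smooth muscle pair, on the minus strand. The count of miR-145 was 85.2, 101 and 24.3 times that of miR-143 under DOX and 13.6, 13.8 and 14.7 times in vehicle. All DOX lanes were above vehicle, lane 3 by the least. By level, miR-143 fell 2.53-fold (adjusted p = 0.00504; 3.35-fold without lane 3), with 1145, 764 and 1879 CPM under DOX and 3231, 3438 and 2960 CPM in vehicle, and miR-145 had 97547, 77447 and 45622 CPM under DOX and 43983, 47271 and 43388 CPM in vehicle (log2 0.71, SE 0.29, adjusted p = 0.0586). The muscle pair miR-1 and miR-133a gave ratios of 14.8, 15.1 and 6.60 under DOX and 4.94, 5.16 and 5.56 in vehicle. The 2 arms of a single hairpin, miR-199a-3p over miR-199a-5p, gave 6.78, 7.28 and 2.88 under DOX and 1.94, 1.94 and 2.31 in vehicle, with miR-199a-5p above background in 1 DOX lane. Over all pairs of a locus the split was wider still for miR-30c over miR-30e, which share a seed: the ratio was 28.3, 34.5 and 6.84 under DOX and 2.06, 2.29 and 2.91 in vehicle. Raw counts of miR-30e in DOX lanes 1 and 2 were 19 and 11, below background, so the size of this split rests on values at background. A second copy of miR-30c lies on chromosome 9.

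**Figure D4:**
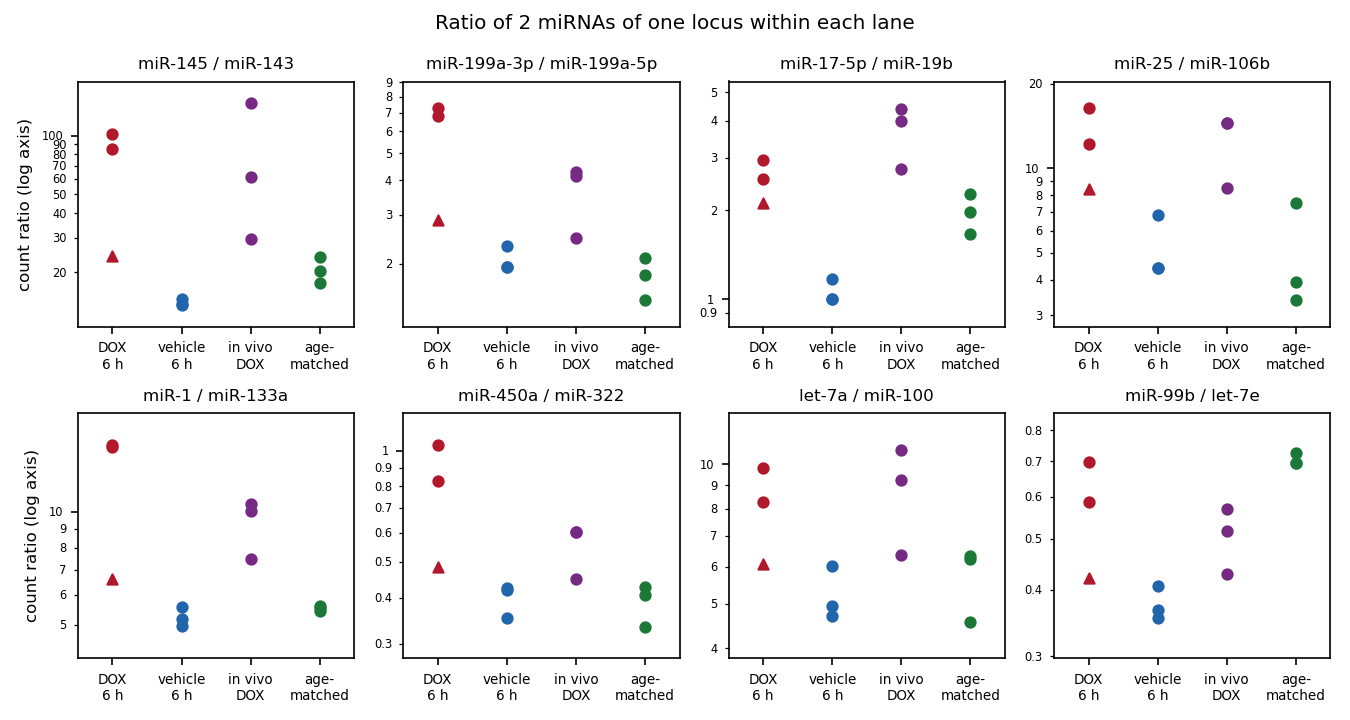
Count ratio of both miRNAs of a locus within each lane (log axis) for the 8 pairs with different seeds whose DOX and vehicle lanes do not overlap; each point is a lane, and the triangle is DOX lane 3. In each panel the DOX lanes lie above the vehicle lanes with lane 3 lowest among them; in vivo DOX and age-matched lanes are drawn to their right, and the miR-145 to miR-143 ratio is 29.5 to 146 after DOX in vivo and 17.6 to 23.9 in age-matched controls.

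Over all tested miRNAs with a sequence, as a description only, the median difference in log2 change was 0.58 between miRNAs of one seed (54 pairs), 0.72 between miRNAs of one locus with different seeds (18 pairs) and 0.79 over all 4005 pairs. Without DOX lane 3 the values were 0.69, 1.28 and 1.09. The median GC content was 40.9% in 15 higher, 43.2% in 14 lower and 45.5% in 61 uncalled miRNAs, and Spearman's rho of GC content with log2 change was 0.08 over the 90 sequences, which share the same lanes. The most abundant miRNA was miR-1 in both groups, and 5 of the 10 most abundant miRNAs of vehicle were among the 10 most abundant under DOX. Those that left were miR-29a, miR-499, miR-133a, miR-29c and miR-27b.

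The 36 miRNAs that passed only without DOX lane 3 had log2 changes of 0.61 (miR-544) to 1.43 (miR-342-3p) among the 19 higher ones and of -0.68 (miR-378) to -2.44 (miR-499) among the 17 lower ones. Some of the higher ones were faint: miR-3589 was above background in none of the 6 lanes, and miR-328a in 1 DOX lane and 2 vehicle lanes. Negative controls averaged 166 and 217 CPM of miRNA counts in DOX lanes 1 and 2 and 112 to 122 in vehicle lanes. The part of this background in such rises was not tested. The level of miR-342-3p was 1415, 1337 and 422 CPM under DOX and 565, 445 and 516 CPM in vehicle. DOX lanes 1 and 2 were far above vehicle and lane 3 was below every vehicle lane. With all lanes its log2 change was 1.05 (SE 0.44, adjusted p = 0.0788). The levels of miR-10a-5p (log2 0.72 with all lanes and 0.96 without lane 3) and miR-139-5p (0.69 and 0.94) overlapped with vehicle through lane 3 as well. Of 36 probes for miRNAs of the imprinted Dlk1-Dio3 cluster, 34 were above background in none of the 6 lanes, and of the tested miR-543 and miR-544 only miR-544 passed, as higher and only without lane 3.

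DOX lane 3 differed from lanes 1 and 2 in size and not in one direction alone. Among the 37 miRNAs called higher without it, its log2 difference from vehicle had a median of 0.28, beside 0.93 for DOX lanes 1 and 2. It was on the same side of the vehicle mean for 26 of them, and the difference was smaller than in lanes 1 and 2 for 33. Among the 32 called lower, the median was -0.21, beside -1.32 for lanes 1 and 2, with 22 on the same side and 30 smaller. Since lanes 1 and 2 chose both sets, a smaller value in lane 3 is partly fixed by that choice. Among the 40 miRNAs called in neither fit the medians were 0.33 for lane 3 and 0.31 for lanes 1 and 2, and lane 3 was the smaller for 22. Lane 3 moved about as far as the other DOX lanes for miR-125a-5p (103% of their log2 distance) and miR-28 (113%). It sat on the far side of vehicle for miR-150, miR-27b, miR-130a and let-7i. For miR-130a the levels were 1998, 1337 and 7927 CPM under DOX and 5311, 5547 and 5801 CPM in vehicle. Lane 3 also held 7.27 miRNA counts per positive-control count, against 4.13 and 3.10 in DOX lanes 1 and 2 and 5.73 to 5.86 in vehicle lanes; the part of this in its values was not tested.

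**Figure D5:**
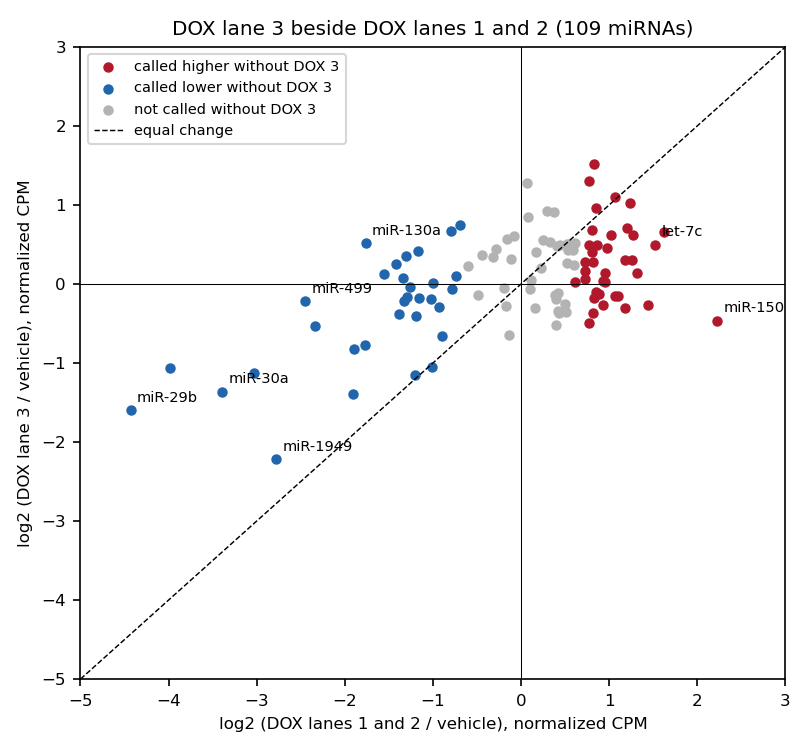
Log2 of DOX lane 3 over the vehicle mean (vertical) against log2 of DOX lanes 1 and 2 over the vehicle mean (horizontal) for the 109 tested miRNAs, with the line of equal change dashed. Of the 69 coloured miRNAs, which passed without lane 3, the median lane 3 change is 0.28 for the higher and -0.21 for the lower ones, and miR-150 lies below 0 at the far right.

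The authors' deposited table for this comparison gives group means after quantile normalization and an unadjusted p. A p under 0.05 stood beside 61 of 420 miRNAs in the authors' deposited table, 30 with a higher and 31 with a lower mean under DOX, and 39 of the 61 are among the miRNAs tested here. All 33 calls have the same direction in the authors' deposited table, and 24 of them have a p under 0.05 there. In the authors' deposited table miR-29b has means of 195 under DOX and 1412 in vehicle (p = 0.0009), and miR-1949 has 34.5 under DOX and 163 in vehicle (p = 0.0001). Of the calls with a p over 0.05 there, in the authors' deposited table let-7c has means of 3127 under DOX and 1573 in vehicle (p = 0.131) and miR-150 has 1683 under DOX and 574 in vehicle (p = 0.149).

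Cells from hearts of animals given repeated DOX injections, set against age-matched controls, were measured with both groups on the vehicle's cartridge and share no lane with the comparison above. There 3.67% of the 109 miRNAs passed, and the log2 changes were -1.83 for miR-29b, -1.63 for miR-30a, -1.33 for miR-133b, 1.03 for let-7c and 1.91 for miR-150, of which miR-133b and let-7c passed. For miR-1949 the value in vivo was 0.59 (adjusted p = 0.24). The difference between the DOX effects in culture and in vivo was not tested here.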

How the data were processed

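The authors deposited barcode counts per probe for 15 lanes, not normalized per the file headers. They are whole numbers and were fitted as counts. In a second deposited sheet of such expected counts the authors subtracted a share of a positive control from 3 probes (miR-208, miR-290 and miR-466c) and set results under 1 to 1. In a further deposited sheet the authors scaled the signal by the positive-control sum and then the miRNA sum. The authors' deposited comparison table holds quantile-normalized signal averaged per group, a p-value not marked as adjusted, and a score, the t statistic. No software is named for these steps in the labels or headers.

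Uncorrected counts of miRNAs above background (mean plus 2 SD of 8 negative controls) in at least 3 of 15 lanes were fitted with edgeR 4.0.16 in R 4.3.3 (robust quasi-likelihood, TMM, 1 mean per group, all 15 lanes). P-values were Benjamini-Hochberg adjusted over 109 miRNAs. Values without DOX lane 3 come from a refit without it. Alternatives included other scalings and filters, limma 3.58.1 on log2 of the signal plus 1, and DESeq2 1.42.0. The procedure was tested on simulated counts with the same spread for all miRNAs and no deviating lane. That test therefore does not cover a lane such as DOX lane 3.

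The members and lists were chosen with earlier results of these data known. Named miRNAs are the calls with or without DOX lane 3 (the 15 largest each way in full), tested list members, the 10 most abundant of vehicle, those above background in all lanes of 1 group and at most 1 of the other, and seed relatives of printed sequences. Unstarred probe names were read as the dominant RefSeq arm. Same-numbered lanes did not vary together (correlations of deviations -0.0056, -0.092 and -0.052), so numbers were not used as pairs.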

Additional observations from a re-analysis of the deposited data

How the results depend on the processing

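No call of the 33 changed direction in any of the 25 other settings that tested it. The count of calls was 60 with upper-quartile scaling, 12 with housekeeping mRNAs, 1 with positive controls, 21 of the 58 miRNAs above background in all 15 lanes, 11 in a fit of the 6 cultured lanes alone, and 83 when DOX lane 3 was dropped together with lane 1 of in vivo DOX and lane 3 of infarction. Dropping a single lane gave 17 to 69 calls. The highest count, 69, came with DOX lane 3 out and the lowest, 17, with DOX lane 1 out. DOX lane 2 out gave 21, and the vehicle lanes gave 18, 21 and 23. RLE factors gave 31 calls (9 higher and 22 lower), total counts 27, spike-in scaling 22 (all lower), DESeq2 38 (13 higher and 25 lower), limma 30 (10 higher and 20 lower), the authors' corrected counts 29, background subtraction 23 and no filter 25 (all lower). Positive-control and housekeeping scaling without DOX lane 3, both chosen after seeing the data, gave 33 calls each, with 1 and 4 higher. The fit with the replicate block gave 39 calls, 30 of them among the 33. Fewer samples or miRNAs enter some of these fits; otherwise the cause was not tested. Of 26 settings, miR-1949, miR-30a, miR-29a, miR-133b and miR-143 passed in 25. Other calls were less firm: miR-199a-3p and miR-365 passed in 5 settings each, let-7e in 6, miR-466d in 8 and miR-150 in 11. At 71522 to 137746 counts per lane, falls of miRNAs near background, such as miR-30e, are limited by that background.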
